A study of Mus musculus with 4 samples.

Results

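The genes described here carry symbols of subunits of the oxidative phosphorylation machinery of mitochondria. They were chosen by symbol alone: Nduf followed by a, b, c, s or v and a digit, Sdha to Sdhd, symbols that begin with Uqcr, Cox4 to Cox8, and symbols that begin with Atp5. Symbols that contain -ps, a mark of pseudogenes, were left out, and copies without that mark were kept. The rule took 85 of the 17819 gene symbols in the table, namely 39 of complex I, 4 of complex II, 8 of complex III, 17 of complex IV and 17 of complex V, each assigned by the stem of its symbol. All 85 carried tags, and the values of a gene are sums over its clusters of transcription starts.

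The material was lesional facial skin at postnatal day 28 from C57BL/6 mice of genotype Nectin-cre(+);Ikk2FL/FL;Postn-/-, which combines the FADS form of dermatitis with loss of periostin. Capped RNA ends were counted by CAGE (cap analysis of gene expression) in 4 libraries, numbered here as in the labels. All 4 form 1 group with no control, and Cre, the floxed Ikk2 alleles and the Postn deletion are shared by every library; the labels do not state in which cells the Cre acts. The sample codes share a first part in libraries 1 and 2 and in libraries 3 and 4, and a last letter in libraries 1 and 3 and in libraries 2 and 4. What these parts mean, and whether the skins came from 4 animals, is not given, so each p-value below speaks of the variation among these libraries alone, part of which may be technical, and is too small if libraries share an animal.

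Oxidative phosphorylation moves electrons from NADH and succinate through complexes I to IV to oxygen, and the proton gradient built on the way drives ATP synthase, complex V. Most subunits are encoded in the nucleus, while a core set comes from the mitochondrial genome, whose transcripts were not analysed here. Several complex IV subunits exist in a general form and a form known from skeletal muscle and heart, and other paired forms are known from lung, from hypoxic cells or from testis. A CAGE tag marks 1 capped RNA end, so tag numbers do not depend on transcript length. Levels are set side by side between genes below, within limits. Tags of genes with close copies can be misplaced in alignment, and whether each cluster is an RNA start was not tested. Levels are CPM, the tags of a gene scaled to a common library total, and 1 tag was worth 0.0531 to 0.0567 CPM.

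The libraries held 17630119 to 18823630 tags over all entries, where a cluster listed under several genes counts once per entry. Counted once per cluster, they held 16492915 to 17691558 tags. CPM and shares of a library's tags or of the table refer to the total over entries. The 4 keratinocyte markers Krt5, Krt14, Krt1 and Krt10 summed to 6636, 5591, 8777 and 8361 CPM in libraries 1 to 4, so the defining markers of skin were present throughout. The 15 skeletal muscle genes listed, among them Acta1, Ckm and Myh4, were all present and summed to 4415, 3265, 5412 and 7883 CPM. Library 2 stood apart: 4 genes of secretory glands (Bpifa2, Smr3a, Mucl2 and Obp1a) took 3.17% of its tags, 0.470% of those of library 4, and together 7.48 and 0.113 CPM in libraries 1 and 3. Before TMM scaling, which corrects for such shifts in composition, the median gene deviated by -0.02, -0.09, 0.05 and 0.06 log2 units from its own mean in libraries 1 to 4. In bulk tissue, fewer cells of a type and less RNA per cell cannot be told apart.

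The sequences around the transcription starts of the muscle-type genes and their general partners are shown first, because these pairs carry the main difference between libraries. Each is 130 bases of RefSeq promoter on GRCm38.p6, from 100 bases before the annotated start base to 29 after it, on the gene's strand, and capitals mark the bases inside the deposited main cluster of tag starts. Cox7a1 lies at chr7:30184071-30184200 on the plus strand, Cox8b at chr7:140900417-140900546, Cox8a at chr19:7217587-7217716 and Cox6a1 at chr5:115348929-115349058, the last 3 on the minus strand. Each main cluster overlaps the first exon of its gene in GENCODE M21.
Cox7a1: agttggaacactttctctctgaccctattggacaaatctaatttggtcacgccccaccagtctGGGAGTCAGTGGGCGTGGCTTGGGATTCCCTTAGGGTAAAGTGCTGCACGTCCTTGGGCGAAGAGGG
Cox8b: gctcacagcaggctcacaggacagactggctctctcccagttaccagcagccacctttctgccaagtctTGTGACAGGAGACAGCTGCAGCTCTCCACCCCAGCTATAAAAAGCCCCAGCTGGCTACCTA
Cox8a: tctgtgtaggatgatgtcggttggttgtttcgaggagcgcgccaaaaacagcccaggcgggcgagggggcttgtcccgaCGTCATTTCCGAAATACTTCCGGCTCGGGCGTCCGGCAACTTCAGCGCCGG
Cox6a1: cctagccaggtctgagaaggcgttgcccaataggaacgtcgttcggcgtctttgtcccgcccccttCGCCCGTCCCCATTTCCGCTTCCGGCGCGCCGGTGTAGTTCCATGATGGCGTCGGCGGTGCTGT

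The 300-base promoter of Cox8b, from 250 bases before to 50 after the start, was 48.3% G and C with 2 CpG dinucleotides, and that of Cox7a1 was 53.0% with 7. The promoter of Cox8a, the partner of Cox8b, was 56.0% with 19, and that of Cox6a1, the partner of Cox6a2, was 63.0% with 32. The median over the 60 members with a RefSeq promoter that overlaps their main cluster was 58.0% with 19 CpG, against 62.0% and 22 over 9444 tested genes. No such promoter was at hand for Cox6a2 or Cox7a2.

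The second set of sequences shows the motif matches that recur among the subunit promoters, in 3 of the genes that hold them, again from 100 bases before to 29 after the start. Capitals now mark the motif: NRF1 in Sdha (chr13:74350211-74350340, minus strand), ERR and then NRF1 in Atp5g3 (chr2:73911297-73911426, minus strand), and YY1 in Ndufc1 (chr3:51408926-51409055, minus strand).
Sdha: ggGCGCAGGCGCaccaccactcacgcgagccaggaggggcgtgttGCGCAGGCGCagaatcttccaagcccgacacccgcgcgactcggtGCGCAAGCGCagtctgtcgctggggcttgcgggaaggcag
Atp5g3: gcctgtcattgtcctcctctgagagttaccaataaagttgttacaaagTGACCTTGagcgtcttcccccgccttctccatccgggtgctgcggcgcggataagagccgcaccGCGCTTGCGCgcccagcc
Ndufc1: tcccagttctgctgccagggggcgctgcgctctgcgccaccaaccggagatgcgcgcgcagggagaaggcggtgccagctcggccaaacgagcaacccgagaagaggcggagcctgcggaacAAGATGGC

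Motifs of factors known to act on nuclear genes for mitochondrial proteins were searched on both strands of the 300-base promoters. The NRF1 motif, GCGCA and GCGC with any base between them, matched in 16 of 60 members (26.7%), against 11.0% of the 9444 promoters and 13.8% of the 3342 other promoters of genes at 38.7 to 417 CPM, a range of levels like that of the members. The YY1 motif AAGATGGC matched in 8 members (13.3%, against 4.85% of all), and in 6 of them it lay on the gene's strand between 22 and 38 bases after the start, as in the Ndufc1 sequence above. The ETS motif CCGGAAG, bound by GABP among others, matched in 17 (28.3%, against 19.4% of all and 22.3% of those of like level). The ERR motif CAAGGTCA matched in Atp5g3, Atp5l, Ndufs5 and Sdhd, 4 members or 6.67%, against 0.826% of all.

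The remaining motifs were near or below their share among all promoters. The GC box GGGCGG matched in 22 members (36.7%), against 68.4% of all promoters and 74.9% of those of like level. CCAAT matched in 26 (43.3%, against 39.0%) and TATAAA in 5 (8.33%, against 8.25%), one of them Cox8b, where it lies 4 bases after the annotated start and inside the cluster. The E-box CAGCTG, of the kind bound by MyoD, matched in 6 (10%, against 14.9%), and Cox8b held it at 2 places, 19 bases before and 16 after the start. The MEF2 motif, CTA and TAG with 4 bases between them, matched in Cox5b alone (1.67%, against 2.91%), and neither Cox8b nor Cox7a1 held it in this window. No motif contains another as spelled, each gene is counted once per motif, and a match describes letters only.

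**Figure D1:**
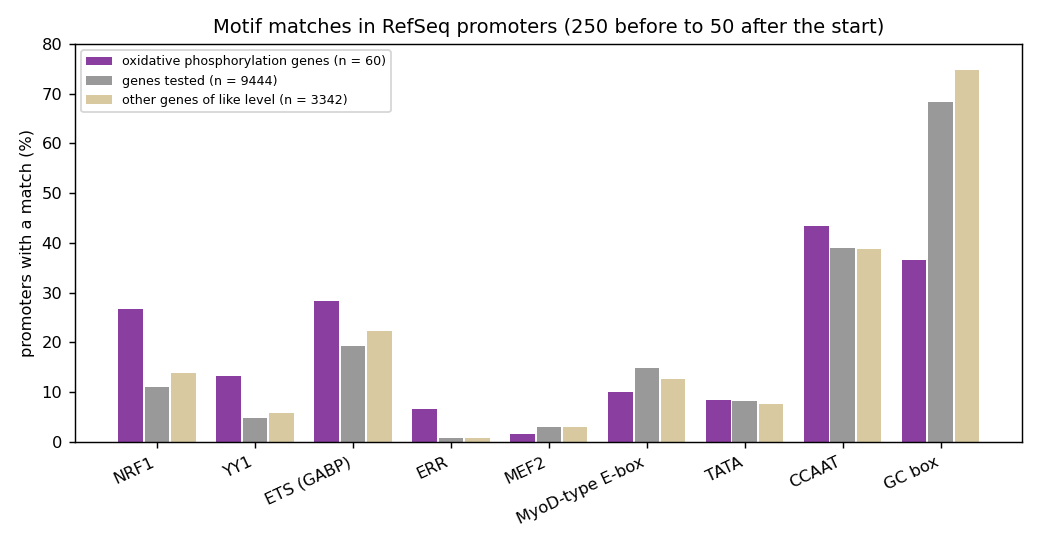
Share of promoters (percent, vertical axis) with at least 1 match to each motif, in 60 oxidative phosphorylation genes, 9444 tested genes and 3342 other genes of like level. The members' bars stand above both references for NRF1, YY1, ETS and ERR, and below both for the GC box.

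The subunit genes were abundant in lesional skin. Together they held 16218, 15559, 17237 and 18039 CPM in libraries 1 to 4, which is 1.56% to 1.80% of the table, and 63 of 85 had a mean of 100 CPM or more. The median member stood at 153 ± 11.4 CPM (SD, n = 4), against 22.8 ± 1.07 for the median of all 14729 genes tested.

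By complex, ATP synthase and complex III had the highest medians. The median gene of complex V stood at 226 ± 10.8 CPM and that of complex III at 215 ± 10.3, and their ranges over libraries overlapped (211 to 236 and 207 to 230 CPM). Complex IV, at 138 ± 24.7, and complex I, at 134 ± 8.30, were lower than both in every library and overlapped with each other. Complex II, at 104 ± 8.79, was below complex I in every library, with a highest library of 115 CPM against a lowest of 127. No test was run over the members of a complex.

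Complex I (NADH dehydrogenase) summed to 5727 ± 367 CPM over its 39 genes, of which 28 reached 100 CPM. Ndufa4 was the highest at 482 ± 53.5 CPM, and its product is now counted with complex IV. Ndufa5, at 374 ± 36.5, and Ndufa13, at 275 ± 21.4, followed. For Ndufa5, 199 CPM came from a cluster 2 bp wide at the second exon, and 174 CPM from the cluster at the annotated start. The lowest were Ndufs6b at 1.47 ± 0.604, Ndufb4 at 6.27 ± 0.288 and Ndufb4c at 10.9 ± 1.99 CPM. Ndufs6b and Ndufb4c resemble Ndufs6 and Ndufb4, so the split of tags between the copies is uncertain. The main cluster of Ndufs6b overlapped no exon of a protein-coding transcript in GENCODE M21.

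Complex II (succinate dehydrogenase) has 4 genes, and they fell into a high and a low pair. Sdha, the flavoprotein that oxidises succinate, stood at 201, 189, 208 and 216 CPM, and Sdhb, the iron-sulphur subunit, at 167, 157, 169 and 191 CPM. The membrane anchors were lower, Sdhc at 23.2, 24.1, 26.0 and 28.9 CPM and Sdhd at 35.3, 29.8, 41.8 and 38.5 CPM. The ranges of the catalytic and the anchor genes did not overlap, and the lowest value of the first, 157 CPM, lay far above the highest of the second, 41.8 CPM.

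Complex III (cytochrome bc1) summed to 1738 ± 83.6 CPM. Its highest members were Uqcrq at 338 ± 6.37, the core protein gene Uqcrc1 at 338 ± 31.9 and Uqcr10 at 318 ± 9.82 CPM. The range of Uqcrc1 over libraries overlapped both others, while that of Uqcrq lay above that of Uqcr10. The other core protein gene, Uqcrc2, was lower at 98.6 ± 11.2 CPM, between Uqcrb at 83.9 ± 11.4 and the Rieske iron-sulphur protein gene Uqcrfs1 at 131 ± 13.2. Cyc1, the cytochrome c1 gene, which the symbol rule does not take, stood at 230 ± 14.9 CPM, and Cycs, the mobile cytochrome c, at 86.6 ± 11.2.

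Complex IV (cytochrome c oxidase) spanned the widest range of levels, from Cox6c2 at 0.678 ± 0.227 to Cox6c at 659 ± 47.6 CPM. Cox4i1, the general form of the largest nuclear subunit, stood at 569 ± 41.3 and Cox8a at 530 ± 37.2 CPM. At the low end, Cox4i2 stood at 1.86 ± 0.619 and Cox6b2 at 5.74 ± 0.941 CPM. The ubiquitous subunit genes Cox5a and Cox5b were far apart, at 153 ± 10.8 and 42.3 ± 2.46 CPM.

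Complex V (ATP synthase) had the most abundant members of all, the catalytic beta subunit Atp5b at 850 ± 51.6 CPM and the alpha subunit Atp5a1 at 729 ± 51.0. Atp5j, a subunit of the stalk, followed at 425 ± 22.4 CPM. The 3 lowest were Atp5k at 30.7 ± 2.57, Atp5o at 107 ± 14.0 and the epsilon subunit Atp5e at 133 ± 8.67 CPM. In the assembled F1 part, alpha and beta are each present in several copies and epsilon in a single one. Of the Atp5b tags, 99.9% lay in clusters that the table also lists under the small RNA gene Snord59a, and of the Atp5g2 tags 100% in clusters also listed under Mir688.

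**Figure D2:**
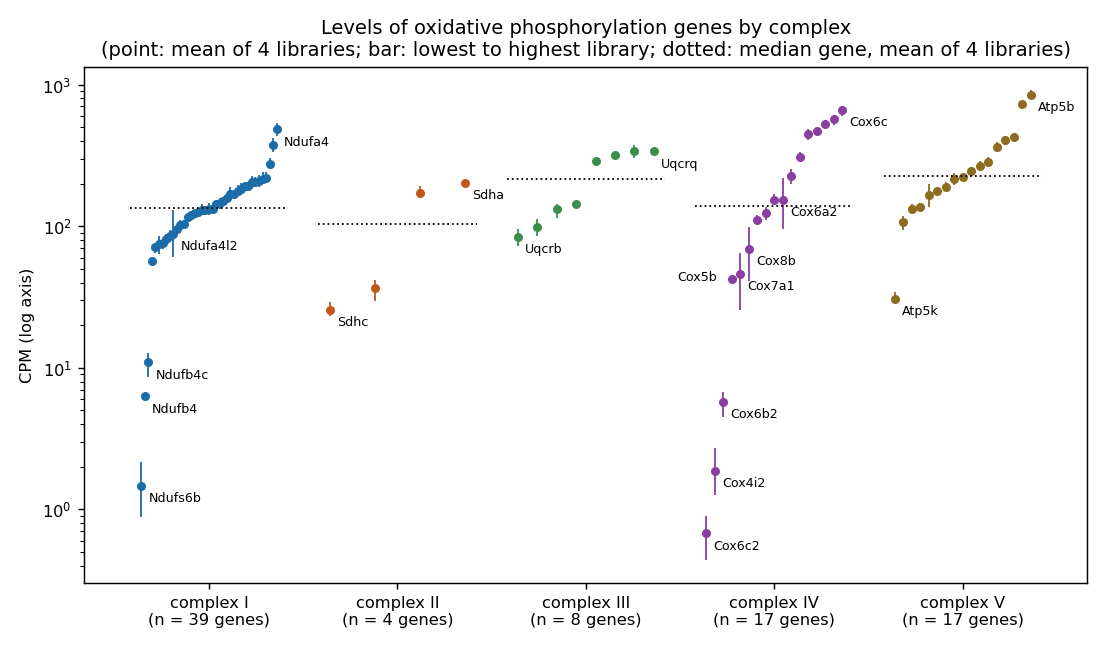
Level of each of the 85 genes in CPM (logarithmic axis) by complex, with the mean of 4 libraries as a point, the lowest to highest library as a bar and the median gene as a dotted line. Most genes have short bars, at levels spread widely around the dotted line of their complex, while Cox6a2, Cox7a1, Cox8b and Ndufa4l2 have long bars.

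The muscle-type forms of 3 complex IV subunits were present and varied together between libraries, while their general partners hardly varied. Cox6a2, the heart and muscle form of subunit 6a, stood at 127, 95.3, 171 and 219 CPM in libraries 1 to 4. Cox7a1, the muscle form of subunit 7a, stood at 37.7, 25.4, 55.3 and 65.1 CPM. Cox8b, the muscle form of subunit 8, stood at 58.5, 41.2, 78.4 and 99.3 CPM. All 3 were highest in library 4, then in libraries 3, 1 and 2, and the highest value was 2.30, 2.56 and 2.41 times the lowest.

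The general forms stayed close between libraries. Cox6a1 stood at 463, 456, 487 and 467 CPM, Cox7a2 at 305, 298, 305 and 333, and Cox8a at 493, 503, 560 and 564. The highest value was 1.07, 1.12 and 1.14 times the lowest.

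Each muscle-type gene was the minor member of its pair in every library. Cox6a2 held 21.5%, 17.3%, 26.0% and 31.9% of the tags of Cox6a1 and Cox6a2, with an exact binomial 95% interval of 16.5% to 18.0% for library 2 and of 31.1% to 32.8% for library 4. Cox7a1 held 11.0%, 7.87%, 15.4% and 16.3% of its pair, and Cox8b 10.6%, 7.56%, 12.3% and 15.0%. For each pair, the intervals of libraries 2 and 4 were apart, and they cover counting error only. The mean log2 ratio to the general form was -1.68 ± 0.50 for Cox6a2, -2.84 ± 0.55 for Cox7a1 and -3.01 ± 0.47 for Cox8b, below 0 in 4 of 4 libraries (two-sided exact sign-flip permutation p = 0.125 for each, the smallest that 4 libraries allow).

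Genes of skeletal muscle moved with these 3 subunits. The summed muscle list was highest in library 4 and lowest in library 2, with a highest value 2.41 times the lowest, and 14 of its 15 genes had the order of libraries 4, 3, 1 and 2 after TMM scaling, an order that 6.32% of all tested genes and 8 of the 84 tested members had. In unscaled CPM, 28 of the 84 members and 15% of all tested genes had this order. Expressed as a share of the muscle list, Cox6a2 amounted to 2.88%, 2.92%, 3.17% and 2.78%, with a highest value 1.14 times the lowest. Cox8b varied 1.15-fold and Cox7a1 1.31-fold on the same scale. Cox6a2 was 217%, 231%, 219% and 221% of Cox8b, so these genes kept a nearly constant proportion while their levels varied more than 2-fold. The part of muscle content in their differences between libraries was not tested.

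Markers of other tissues that use the same isoforms were also measured. Of 7 slow muscle markers 5 were analysed, and they summed to 19.8, 13.6, 26.9 and 30.05 CPM, mostly from the myoglobin gene Mb. Of 5 cardiac markers only 1 was analysed, Tnnt2, which stood at 2.53, 1.70, 2.33 and 3.62 CPM. Of 4 brown adipocyte markers 3 were analysed. Cidea, Elovl3 and Dio2 summed to 131, 160, 219 and 177 CPM and were highest in library 3, while Ucp1 was not among the genes analysed. The cells in this skin from which Cidea, Elovl3 and Dio2 came were not determined. Cox7a1 and Cox8b are also known from brown fat, and the part of brown fat in their levels was not tested.

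**Figure D3:**
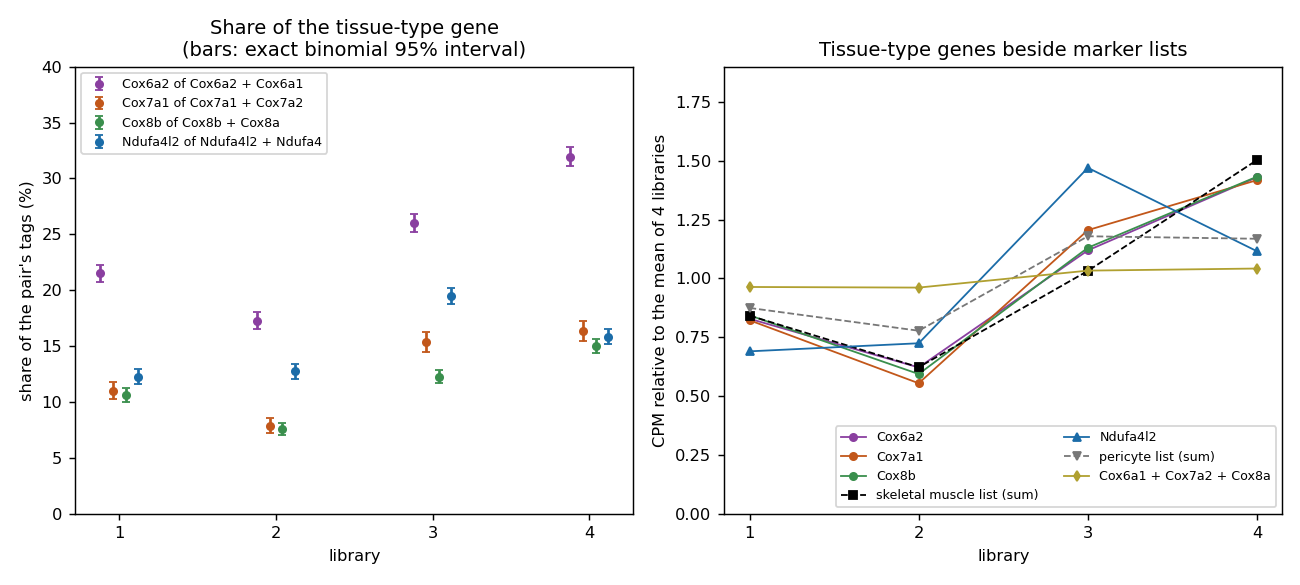
Left, share of each tissue-type gene in the tags of its pair (percent) in libraries 1 to 4, with exact binomial 95% intervals; right, CPM of the same genes, of 2 marker lists and of the summed general forms relative to the mean of 4 libraries. Cox6a2, Cox7a1 and Cox8b follow the skeletal muscle list (dashed, squares) from a low in library 2 to a high in library 4, while the summed general forms stay near 1 and Ndufa4l2 peaks in library 3.

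Ndufa4l2, the hypoxia-inducible relative of Ndufa4, was the other member with a wide spread. It stood at 60.8, 63.8, 129 and 98.2 CPM, highest in library 3 and not in library 4. Ndufa4 stood at 435, 437, 534 and 523 CPM, so Ndufa4l2 held 12.2%, 12.7%, 19.5% and 15.8% of the pair, with a mean log2 ratio of -2.52 ± 0.37 (exact sign-flip permutation p = 0.125). Ndufa4l2 is also known as a pericyte gene, and 6 of 6 pericyte markers were analysed, with a sum of 111, 98.7, 149.6 and 148 CPM. Libraries 3 and 4 were both above libraries 1 and 2 in 6 of 6 of these markers after TMM scaling, as in 26.8% of all genes. As a share of that sum Ndufa4l2 amounted to 54.8%, 64.7%, 86.5% and 66.3%, so it did not keep a constant proportion to the list. The part of pericyte content was not tested.

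The lung and testis forms were scarce. Cox4i2, the lung and hypoxia form of subunit 4, stood at 1.27, 1.70, 1.76 and 2.73 CPM, 23 to 49 tags a library, and held 0.228%, 0.327%, 0.293% and 0.449% of the tags of its pair with Cox4i1. Cox6b2, the testis form of subunit 6b, stood at 4.51, 5.63, 6.75 and 6.08 CPM and held 1.04%, 1.37%, 1.41% and 1.24% of its pair with Cox6b1. For both, the mean log2 ratio to the general form was far below 0, at -8.28 ± 0.40 and -6.29 ± 0.20 (exact sign-flip permutation p = 0.125). The pairs of Cox7b2 and Cox8c were not analysed here.

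Further low relatives were paired with their abundant copies after their values were seen. Cox6c2 held 8, 10, 15 and 16 tags in libraries 1 to 4 and 0.0683% to 0.126% of its pair with Cox6c. Ndufs6b held 0.688% to 1.71% of its pair with Ndufs6. Copies this alike can exchange tags in alignment, so these shares are uncertain.

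The c ring of ATP synthase is built from 1 mature protein that 3 genes encode, and all 3 were used. Atp5g1 stood at 152, 136, 176 and 199 CPM, Atp5g2 at 280, 262, 310 and 281, and Atp5g3 at 170, 171, 182 and 188. Atp5g2 supplied 46.6%, 46.1%, 46.4% and 42.1% of their tags and was the highest in every library. Atp5g1 supplied 25.2%, 23.9%, 26.4% and 29.8%, and Atp5g3 28.2%, 30.1%, 27.2% and 28.1%. The log2 ratio of Atp5g1 to Atp5g2 was -0.79 ± 0.20 and that of Atp5g3 to Atp5g2 -0.67 ± 0.09, both in 4 of 4 libraries (exact sign-flip permutation p = 0.125). Atp5g1 and Atp5g3 did not differ beyond their spread (-0.11 ± 0.18, below 0 in 3 of 4 libraries, exact sign-flip permutation p = 0.375).

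The spread of each gene between libraries was tested against genes of its level, on log2(CPM + 1) after TMM scaling. Of the 84 members tested (Cox6c2 fell below the minimum mean of 1 CPM), 0 were called by limma at an adjusted p under 0.05, and 0 by edgeR, against 0.231% and 0.224% of all 14729 genes. At an unadjusted p under 0.05 there were 4 members by limma, against 6.29% of all genes, and 4 by edgeR, against 6.25%. They were Cox7a1 (limma adjusted p = 0.389), Cox8b (0.424), Ndufa4l2 (0.431) and Cox6a2 (0.447), the 4 members with the largest SD, at 0.52, 0.47, 0.46 and 0.45 log2 units. Of the 15 skeletal muscle genes, 0 were called by limma, and 15 were under 0.05 before adjustment. A p that misses the threshold does not show that the levels were equal.

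Most other members were steady. The median SD of the members was 0.0713 log2 units, against 0.0923 for 4827 other genes at 38.7 to 417 CPM, and 58 of 84 lay below that median. The members were not limited to that range, and their median level was 153 CPM, against 71.1 CPM for those other genes. The part of level in this difference was not tested. The variance was under the fitted trend for the gene's level in 63 of 84 members, against 52.4% of all genes. Among the smallest SDs were those of Ndufb10 (0.0114) and Sdha (0.0188). In CPM, Ndufb10, a subunit of the membrane arm, stood at 190, 181, 197 and 199. Leaving out Cox6a2, Cox7a1, Cox8b and Ndufa4l2, the highest library was 1.04 to 1.47 times the lowest in the 76 members at 10 CPM or more.

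**Figure D4:**
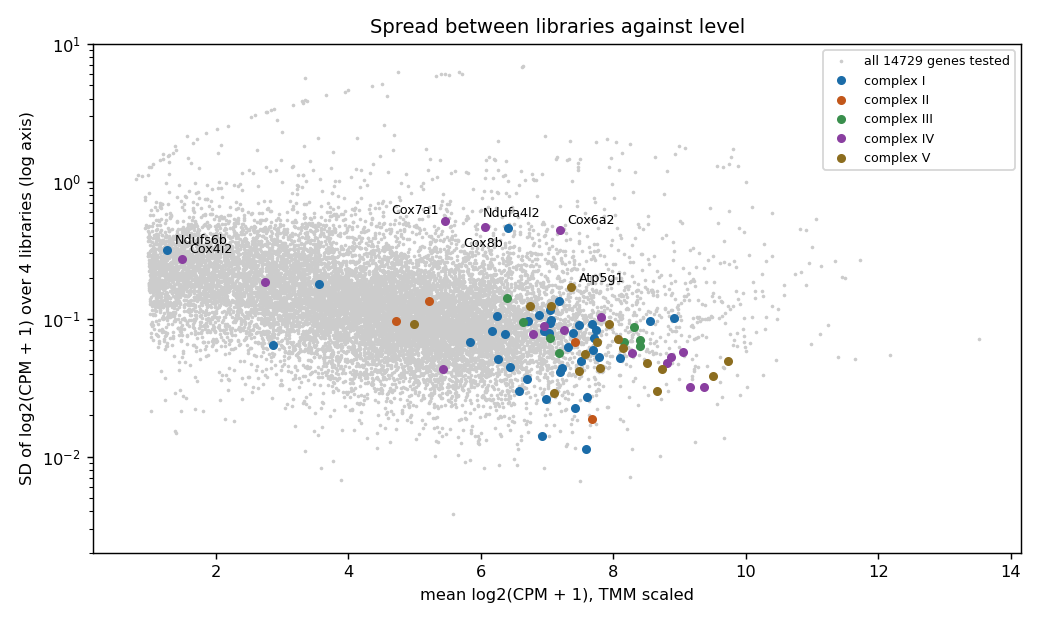
SD of log2(CPM + 1) over 4 libraries (logarithmic axis) against mean log2(CPM + 1), TMM scaled, for all 14729 tested genes (grey) and the 84 members by complex. Cox7a1, Cox8b, Ndufa4l2 and Cox6a2 lie between 0.45 and 0.52, and most members lie in the lower part of the grey cloud at their level.

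Across libraries, the medians of the complexes moved little. The median deviation of a complex's genes from their own means, in log2 units after TMM scaling, ranged over 0.08 in complex I, 0.08 in complex II, 0.07 in complex III, 0.11 in complex IV and 0.08 in complex V. All 5 were highest in library 4, at 0.05, 0.06, 0.04, 0.06 and 0.04, while the lowest was library 3 for complexes I and II and library 1 for complexes III, IV and V. The 3 muscle-type genes ranged over 1.09, from -0.57 in library 2 to 0.52 in library 4, and the muscle list over 1.09 as well, from -0.49 to 0.60. Without the 3, complex IV ranged over 0.06.

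The steps of the complexes were small beside the scaling. After TMM scaling 44 of 84 members were highest in library 4, as were 23.1% of all genes, and in unscaled CPM 62 of 84, as were 35.4% of all. Libraries 3 and 4 were both above libraries 1 and 2 in 28 of 84 members after scaling (26.8% of all genes) and in 58 in CPM (45.6% of all). Without library 4, the range of complex I fell to 0.03, that of complex II to 0.01, that of complex III to 0.03 and that of complex IV to 0.05.

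**Figure D5:**
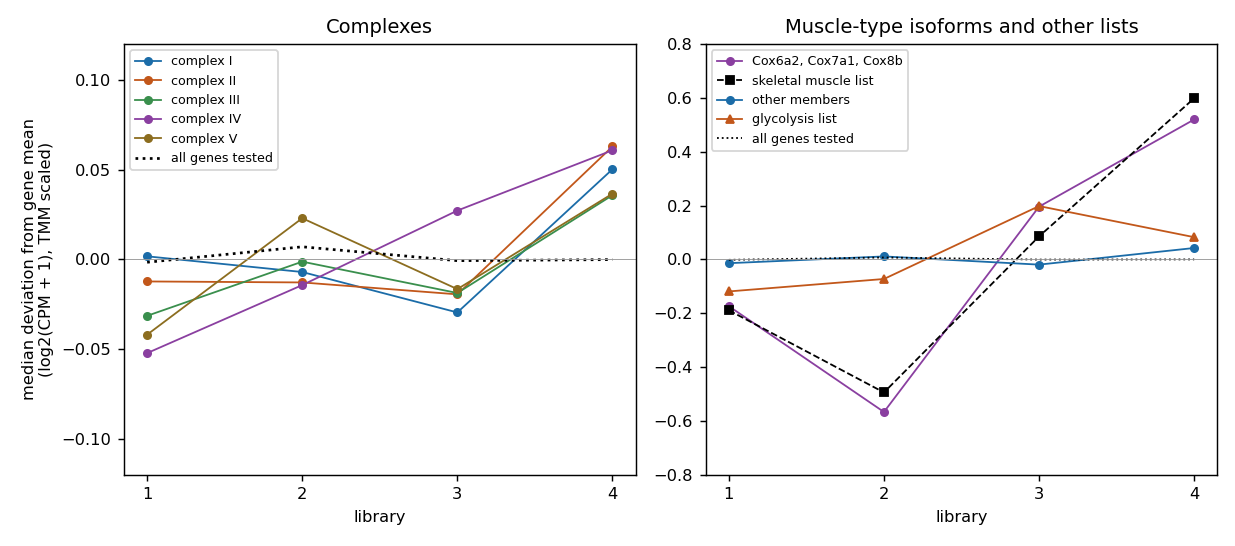
Median deviation of a group's genes from their own means (log2(CPM + 1), TMM scaled) in libraries 1 to 4, for the 5 complexes (left) and, on a wider axis, for the muscle-type genes and other lists (right). The complexes stay between -0.06 and 0.07, while Cox6a2, Cox7a1 and Cox8b run with the skeletal muscle list from -0.57 to 0.52.

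Most genes that build or control the complexes were far lower than the median subunit gene. Of 38 assembly factor genes analysed, 0 were called by limma, against 0.231% of all genes. Before adjustment 0 were under 0.05, against 6.29% of all genes. Their median deviation ranged over 0.01 log2 units for complex I, 0.13 for complex II, 0.05 for complex III, 0.06 for complex IV and 0.15 for ATP synthase. Most stood well under 100 CPM, such as Ndufaf1 for complex I at 20.7 ± 2.32, Bcs1l, which inserts the Rieske protein into complex III, at 7.43 ± 0.941, Surf1 for complex IV at 27.8 ± 0.957 and Atpaf1 for ATP synthase at 59.6 ± 5.41 CPM. The highest were Acad9, at 164 ± 9.75, and the copper chaperone gene Cox17, at 129 ± 6.59, all of whose tags lie in clusters also listed under another gene. The 9 regulators analysed likewise had 0 calls by limma and 0 under 0.05 before adjustment. The coactivator gene Ppargc1a stood at 6.29 ± 0.825 CPM, and the factors whose motifs were searched at 26.0 ± 2.35 (Nrf1), 45.9 ± 1.85 (Gabpa), 38.6 ± 3.26 (Esrra) and 88.0 ± 6.15 (Yy1).

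Glycolysis genes differed from the subunit genes in their pattern. The median deviation of the 17 listed ranged over 0.32 log2 units and was highest in library 3, at 0.20, and 11 of the 17 were highest there after TMM scaling, as were 15 of 84 members and 27.9% of all genes. None was called by limma (0 of 17), against 0.231% of all genes. Before adjustment 5 were under 0.05, against 6.29% of all genes. They were Hk2, Ldhb and the muscle forms Eno3, Pgam2 and Pfkm. The muscle forms Eno3, an enolase, at 115, 86.0, 160 and 206 CPM, and Pgam2, a phosphoglycerate mutase, at 46.0, 32.7, 69.1 and 87.6 CPM, had the library order of Cox6a2. The muscle phosphofructokinase Pfkm, at 8.14, 9.24, 15.4 and 18.2 CPM, was lowest in library 1 and did not. The general forms Eno1, at 78.7, 74.4, 100.3 and 78.9, and Pgam1, at 72.9, 66.9, 74.6 and 65.1 CPM, did not have it either.

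Most subunit genes started from 1 place. The main cluster held at least 90% of the tags in 77 of 84 members (91.7%), against 76.7% of all tested genes, and 36 of 84 (42.9%) had a single cluster, against 43.8% of all. The main cluster held a GENCODE M21 transcript start in 76 of 85 members. Its median width was 130.5 bp in the members tested, against 124 bp over all genes and 148 bp over those of like level. Cluster starts are uncertain by 1 bp. The main cluster of Ndufa13 lay 882 bp downstream of the nearest annotated start, in its second exon, and those of Ndufb11 and Ndufb3 lay 324 and 197 bp downstream, inside the first exon.

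In 6 members a second cluster held over 10% of the tags (7.14%, against 20.4% of all genes), namely Atp5j, Cox4i1, Ndufa3, Ndufa5, Ndufs7 and Ndufs8. In each of them 1 of the clusters was 2 to 11 bp wide and began 2 to 4 bp before the start of a second or later exon. In Ndufa5 this narrow cluster (chr6:24527317-24527319, minus strand) held 53.2% of the tags and sat at the edge of the second exon. At most its last base reached the exon and its coding sequence. It lay 235 bp from the cluster at the annotated start, which held 46.4%. In Ndufs7 (chr10:80252394-80252401, plus strand) it held 50.8%, and in Ndufa3 (chr7:3617614-3617622, plus strand) 86.9%. In Ndufs8 it held 40.1%, in Cox4i1 11.6% and in Atp5j 10.6%. The share of the larger cluster in the 2 varied little between libraries, at 53.4% ± 0.261 in Ndufa5, 50.8% ± 0.386 in Ndufs7, 59.7% ± 0.333 in Ndufs8, 88.4% ± 0.331 in Atp5j and 88.4% ± 0.451 in Cox4i1 (SD, n = 4). It varied more in Ndufa3, from 85.0% to 89.4% (87.0% ± 1.84). A cluster under 20 bp wide with over 10% of the tags and a first base 0 to 5 bp before a second or later exon, a description set after these values were seen, occurred in 6 of 84 members (7.14%), 3.16% of all tested genes and 4.14% of genes of like level. Whether RNA starts at these places was not tested.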

How the data were processed

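RNA was purified on columns and its integrity checked, and CAGE libraries were prepared with a commercial kit, per the labels' protocols. BWA and HISAT2 are named in the submitters' processing notes, with no version and with the mm9 build; the coordinates instead fit GENCODE M21 on GRCm38, where all 85 member identifiers were found, and are given on that build. The sources used here do not state how tags were joined into clusters. The deposited CPM were scaled by the authors to the total of each library over 69391 entries, which list 67319 distinct clusters. Of the values, 100% came out as whole tags (tolerance 0.02 tags), so tags were recovered. Clusters without a gene name held 9.67% to 11.0% of tags, here counted once per cluster, and entered totals only. Tags were summed per symbol. From 17819 symbols, 32 without a tag and 753 whose clusters belonged by 90% or more to a different gene were dropped, which left 17034; a kept gene retained its shared clusters.

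The spread test used limma 3.58.1 in R 4.3.3 on log2(CPM + 1), which understates changes of low genes, with TMM factors of 0.933 to 1.05, genes of at least 1 CPM on average, an intercept-only fit, a robust trended prior (3.47 prior degrees of freedom), and an upper F test (one-sided) of each gene's variance, adjusted by Benjamini-Hochberg over all genes at 0.05. The unit is CPM, so limma was the main test; edgeR 4.0.16 and size factors of DESeq2 1.42.0 on recovered tags were alternatives. The test was first tested on simulated data. Pair ratios had 0.5 tags added, and shares have exact Clopper-Pearson 95% intervals, for counting error only. The other alternatives changed the pseudocount, the filter, the scaling, the clusters summed and the libraries kept.

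Genes named are the tissue-type isoforms and partners, the c subunit genes, the 3 highest and 3 lowest of each complex, the 3 largest and 3 smallest SDs, genes with shared or second clusters, and listed pathway and marker genes; any other is said to be chosen after its values were seen, or appears as a motif example. Members, lists and tests were chosen with earlier results of these data known. Promoter sequences are from RefSeq (GRCm38.p6), matched by symbol. A gene that the rule for named genes takes is not reported here.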

Additional observations from a re-analysis of the deposited data

Results flagged for a closer look

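Of 107 values compared over the 4 libraries, 3 had 1 library far from the other 3, with a gap to the nearest of them that, as a share of the whole range, passed Dixon's 95% critical value. Chance flags about 1 in 20 such groups. The delta subunit gene of ATP synthase, Atp5d, stood at 211.1 CPM in library 2, against 224.3 to 225.9 in the others (gap 0.888 of the range). Cox5a, a complex IV subunit gene, stood at 168.6 CPM in library 4, against 146 to 149.5 (0.849). Uqcrq, of complex III, stood at 347.4 CPM in library 4, against 334 to 336.1 (0.847). None of the 3 was called by the limma spread test (0 of 3), and their highest library was 1.07, 1.15 and 1.04 times the lowest.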

How the results depend on the processing

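Of the 84 members tested, 0 were called under every alternative to the spread test, with 4 at an unadjusted p under 0.05 each time. The number called over all genes, 34 by limma, was 104 without scaling, 61 without a filter, 62 with the most used cluster alone, and 0 with at least 10 tags in every library (917 at an unadjusted p under 0.05 by limma); leaving out 1 library gave 10 (without library 4) to 112 (without library 3). The median level of complex V was 211.9 CPM once genes in shared clusters were left out. Without scaling, the deviation of the complexes ranged over 0.2189, 0.2369, 0.1989, 0.2254 and 0.1756 log2 units in complexes I to V. Leaving out 1 library gave ranges of 0.02972 to 0.08542 in complex I, 0.005325 to 0.1054 in complex II, 0.03 to 0.07176 in complex III and 0.04905 to 0.1111 in complex IV, the lowest of each without library 4. The cause was not tested. All 54 alternatives of the isoform ratios kept their direction and stayed within the spread between libraries. No paired analysis was possible because all libraries form 1 group. Depth limits Cox6c2, with 8 to 16 tags, and Ndufs6b, with 16 to 39.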

Other observations

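Some listed glycolysis genes shared the library in which Ndufa4l2 was highest. Hk2, a hexokinase, stood at 57.2, 56.4, 98.2 and 75.6 CPM in libraries 1 to 4, and Ldhb, a lactate dehydrogenase subunit gene, at 37.3, 38.6, 67.3 and 60.7 CPM. Both were highest in library 3, as was Cidea, a gene of the brown adipocyte list, at 32.6, 46.5, 88.3 and 64.9 CPM. The cells it came from were not determined. After TMM scaling, 27.9% of all tested genes and 4 of 5 adipocyte markers were also highest in library 3. Neither Hk2 nor Ldhb was called by limma (adjusted p = 0.686 and 0.586), and both were picked out after their values were seen.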
